A study of Homo sapiens with 7 samples.

Results

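The genes described here encode 7 proteins reported to join RBFOX proteins in the large assembly of splicing regulators (LASR): HNRNPM, HNRNPH1, HNRNPC, HNRNPUL2, MATR3, ILF2 and DDX5. They were chosen by name and are 7 of the 14290 genes to which isoforms were assigned. Together they had 1080 of the 386982 isoform rows, and 33 of these rows had a reference transcript ID. Polyadenylated RNA of the established human embryonic stem cell line HUES66 had been sequenced as full-length cDNA by PacBio long reads. There was 1 control library of wild-type genotype and 6 libraries in which Cas13d, an RNA-guided nuclease that cuts RNA, was directed at isoforms of RBFOX2. The 6 are named by their G numbers: G3 (RBFOX2 id 178147), G5 (178149), G11 (178136), G12 (178135), G13 (178145) and G14 (178146). Which isoform an id stands for is not given in the sources used here. The labels mark all 7 samples, the control included, as piggyBac, treated with doxycycline at 1 µg/ml and collected at 24 h.

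RBFOX proteins bind a short motif in introns beside alternative exons, and the position of the motif bears on whether the exon is included. In nuclei most RBFOX protein is held in LASR, whose other subunits contact RNA through binding preferences of their own. HNRNPM prefers GU-rich RNA, HNRNPH1 runs of G, HNRNPC runs of U and MATR3 pyrimidine-rich RNA. DDX5 is a DEAD-box RNA helicase, ILF2 is a nuclear factor with a DZF dimerization domain, and HNRNPUL2 is a relative of the nuclear scaffold protein HNRNPU. The protein assembly was not measured here: every value below is a count of mRNA reads.

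With 1 library per group there is no replicate, so no test between conditions is possible and no difference has a replicate check. All intervals are 95% intervals that cover counting error only. The control library was the smallest, at 16801842 reads, and G12 the largest, at 26678538. Gene levels are given as TPM, which in this table is the count scaled to the size of the library and not to transcript length, so levels are compared between libraries and not between genes. Of 10 pluripotency genes 9 had rows, with at least 1 TPM for each in every library and a summed level of 1692 to 2143 TPM. Among them POU5F1 stood at 915 TPM in the control, above the G libraries (377 TPM for G14 to 588 TPM for G3). DPPA4 went the other way, at 745 TPM in the control and 766 TPM (G12) to 1002 TPM (G5) in the G libraries. The part of either gene in the differences below was not tested. Of 10 genes of other cell types 4 had rows, and COL1A1 alone reached 1 TPM, from 1.58 TPM in G13 to 30.3 TPM in G3. RBFOX2 itself was at 107 TPM in the control, with G3 at 42.1, G5 at 96.8, G11 at 82.9, G12 at 88.5, G13 at 55.9 and G14 at 106.

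The members differ in the variable coding segments that the isoform results below turn on, and these are shown 5′ to 3′ on the coding strand, from GENCODE 29 on GRCh38. The first is an HNRNPC exon (chr14:21230958-21231072, minus strand) whose last 39 bases, in capitals, are present in the long form alone and add 13 codons, the difference between the C2 and C1 proteins. The second is the 50-nt HNRNPH1 exon (chr5:179615546-179615595, minus strand) that ends with the stop codon of the main reading frame, in capitals. The last pair are the first coding bases of MATR3, with the start codon in capitals. The long reading frame starts in a 1089-nt exon (chr5:139307416-139307445, plus strand), and the annotated frame of the form without that exon starts in a first exon (chr5:139293981-139294010, plus strand).
HNRNPC: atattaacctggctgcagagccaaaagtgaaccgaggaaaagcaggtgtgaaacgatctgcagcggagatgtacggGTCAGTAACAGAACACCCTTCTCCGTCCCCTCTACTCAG
HNRNPH1: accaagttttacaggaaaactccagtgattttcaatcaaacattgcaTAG
MATR3 long: ATGtccaagtcattccagcagtcatctctc
MATR3 short: ATGttaggagcgcagtggcggcgcaaccag

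Among the 7876 genes with a mean of at least 5 TPM were 6 of the 7 members, and HNRNPUL2 was below that level. None of the 36 member values, 6 genes in 6 G libraries, was 2-fold or more from the control on the log2(TPM + 0.5) scale. With median-of-ratios scaling 2 were, ILF2 in G13 and G14, at log2 ratios of 1.10 and 1.07. The share of all genes under that scaling is not given here. In the main processing, the share of all 7876 genes at least 2-fold away was 7.03% for G3, 10.7% for G5, 11.1% for G11, 9.33% for G12, 15.6% for G13 and 22.8% for G14. Among genes with a mean of at least 20 TPM that share was 6.11%, 10.6%, 8.78%, 5.31%, 10.1% and 21.2% in the same order. At 1.5-fold, ILF2 was higher in G11, G12, G13 and G14, where 6.53%, 5.08%, 6.86% and 15.5% of all genes were that much higher. In G3 and G5 no member was 1.5-fold higher, against 8.71% and 3.71% of all genes. DDX5 was 1.5-fold lower in G12, where 22.6% of all genes were that much lower. No member was 1.5-fold lower in the other 5, against 12.3% of genes in G3, 17.2% in G5, 22.5% in G11, 29.1% in G13 and 31% in G14.

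**Figure D1:**
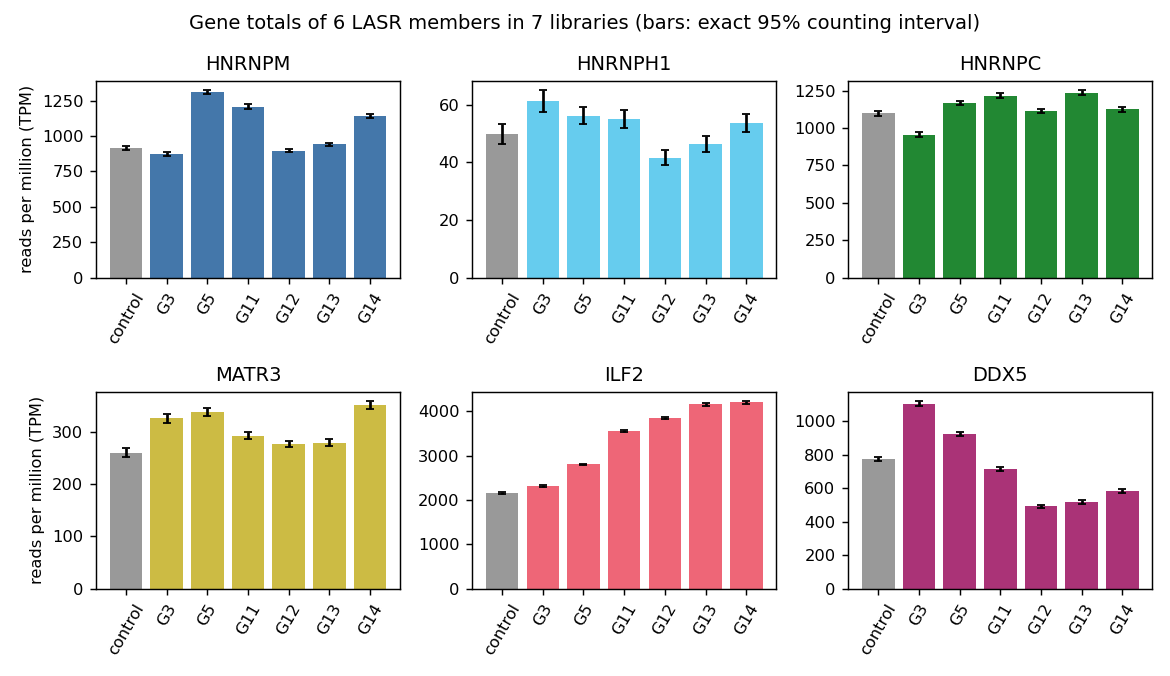
Gene totals of the 6 members that passed the expression filter (y axis, TPM) in the control, in grey, and the 6 G libraries, with exact 95% counting intervals. ILF2 ran from 2163 in the control to 4201 in G14, and DDX5 was highest in G3 (1103) and lowest in G12 (491).

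The median log2 ratio over the 6 members was 0.19 for G3, 0.31 for G5, 0.16 for G11, 0.00 for G12, 0.07 for G13 and 0.21 for G14. The median over all genes compared was 0.12, 0.14, -0.04, -0.16, -0.21 and -0.10 in the same order. Over genes with a mean of at least 20 TPM, which take in all 6 members, it was 0.11, 0.19, 0.05, -0.07, -0.10 and 0.00. The members above the control, out of 6, numbered 4 for G3, 6 for G5, 5 for G11, 3 for G12, 4 for G13 and 5 for G14. Of all genes compared, 63.1%, 61.5%, 47.1%, 37.6%, 35.7% and 45.2% were above it. With a trend in transcript length and GC content removed, the median over the members was 0.19, 0.19, 0.13, 0.02, 0.04 and 0.11 and that over all genes 0.02, 0.07, 0.05, 0.02, 0.03 and 0.05, so the 2 medians were level in G12 and nearly so in G13. All ratios share the control library.

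Of the subunits that bind RNA directly, HNRNPM (chromosome 19, 8444767 to 8489114, plus strand) was at 915 TPM in the control, with G3 at 873, G5 at 1308, G11 at 1208, G12 at 896, G13 at 941 and G14 at 1139. G5, G11 and G14 were high and the other 3 lay near the control. As a share of the control G5 was at 143% (140 to 146), G11 at 132% (129 to 135) and G14 at 125% (122 to 127), while G3 was at 95.4% (93.3 to 97.5), G12 at 97.9% (95.9 to 99.9) and G13 at 103% (101 to 105). Every pair of neighbours in the order of the 7 levels was separated by its counting interval. This division did not hold with the length and GC trend removed, when the log2 ratios were -0.21, 0.46, 0.47, 0.16, 0.35 and 0.47 in G3 to G14 and G12 had turned direction. G12 also turned with median-of-ratios scaling, to 0.11. The highest library was 1.5 times the lowest, against a median of 1.82 over all genes compared.

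HNRNPC (chromosome 14, 21209136 to 21269494, minus strand), known for covering U-rich stretches and keeping Alu-derived exons out of mRNA, varied least of the 6 members compared. It was at 1099 TPM in the control, with G3 at 957, G5 at 1164, G11 at 1217, G12 at 1116, G13 at 1237 and G14 at 1124. G3 was the lowest library, at 87.0% of the control (85.2 to 88.8), and G13 the highest, at 112% (110 to 115). The highest was 1.29 times the lowest, which put HNRNPC at percentile 6.16 of all genes compared. After removal of the length and GC trend its log2 ratio was 0.00 in G3, where it had been -0.20, and G5 (0.28) and G11 (0.25) lay above G13 (0.16). The control and G12, G12 and G14, and G11 and G13 were neighbours not separated by their counting intervals.

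HNRNPH1 (chromosome 5, 179614178 to 179634784, minus strand) rested on 837 to 1430 reads per library, fewer than the other 5 members compared. It was at 49.8 TPM in the control, with G3 at 61.2, G5 at 56.2, G11 at 55.0, G12 at 41.6, G13 at 46.2 and G14 at 53.6. G3 was the highest library, at 123% of the control (112 to 135), and G12 the lowest, at 83.6% (76.4 to 91.6). Most neighbours in between could not be separated at this depth: G13 from the control, the control from G14, G14 from G11, and G11 from G5. Its direction turned in G14 with the length and GC trend removed (log2 ratio -0.08 in place of 0.10) and in G13 with median-of-ratios scaling (0.05 in place of -0.11).

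MATR3, a nuclear matrix protein with zinc fingers and RNA recognition motifs, had a pair of Ensembl gene IDs, which were summed. ENSG00000015479.20 (chromosome 5, 139293648 to 139331677, plus strand) held 94.7% to 96.0% of its reads and ENSG00000280987.4 (139273752 to 139331671) the remainder. MATR3 was at 261 TPM in the control, with G3 at 327, G5 at 339, G11 at 294, G12 at 278, G13 at 280 and G14 at 352. The control was the lowest of the 7 libraries. G14 was at 135% of it (130 to 140), G5 at 130% (125 to 135), G3 at 125% (120 to 130) and G11 at 112% (108 to 117). G12 and G13, at 106% (102 to 110) and 107% (103 to 111), were not separated from each other. Removing the length and GC trend turned the direction in G11, G12 and G13, where the log2 ratios became -0.09, -0.04 and -0.07 in place of 0.17, 0.09 and 0.10.

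ILF2 (chromosome 1, 153661788 to 153671048, minus strand) was the member that stood farthest above the control. Its annotated transcripts average 1659 nt with 47.9% GC. It was at 2163 TPM in the control, with G3 at 2303, G5 at 2799, G11 at 3546, G12 at 3842, G13 at 4152 and G14 at 4201. The control was the lowest library and G3 lay just above it, while G13 and G14 were the highest. Relative to the control it was 106% for G3 (105 to 108), 129% for G5 (128 to 131), 164% for G11 (162 to 166), 178% for G12 (175 to 180), 192% for G13 (190 to 194) and 194% for G14 (192 to 197). Among all genes compared, these log2 ratios lay at percentiles 46.5, 77.9, 97.1, 98.5, 98.6 and 95.3. Without the length and GC trend the log2 ratios were 0.24, 0.53, 0.80, 0.88, 0.94 and 1.09, against 0.09, 0.37, 0.71, 0.83, 0.94 and 0.96 before. Set against the median of the other 6 libraries in place of the control, G3 and G5 were lower, at -0.68 and -0.40, and G14 was at 0.42.

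**Figure D2:**
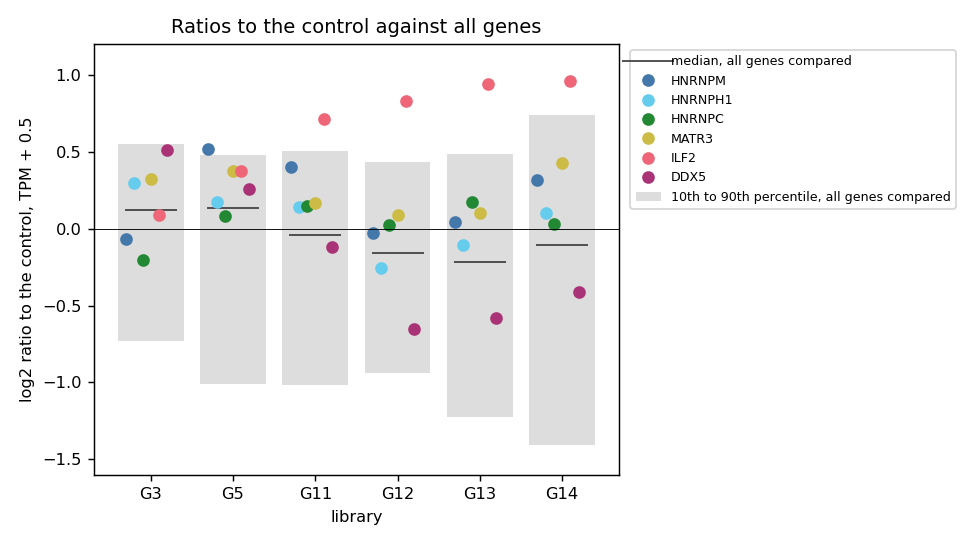
Log2 ratio to the control on the TPM + 0.5 scale (y axis) in each G library (x axis) for the 6 members, as circles. Grey bars run from the 10th to the 90th percentile of all 7876 genes and dashes mark their median; ILF2 lies above the grey bar in G11, G12, G13 and G14, and HNRNPM in G5.

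DDX5 (chromosome 17, 64499616 to 64508199, minus strand), the helicase of the set, lay above the control in 2 G libraries and below it in 4. It was at 774 TPM in the control, with G3 at 1103, G5 at 925, G11 at 711, G12 at 491, G13 at 516 and G14 at 581. Relative to the control G3 was at 143% (139 to 146), G5 at 120% (117 to 122) and G11 at 92.0% (89.8 to 94.2). The lowest were 63.5% (62.0 to 65.0) in G12, 66.8% (65.1 to 68.5) in G13 and 75.1% (73.3 to 77.0) in G14. Its highest library was 2.25 times its lowest, the widest range of the 6 members and at percentile 67.8 of all genes compared. Without the length and GC trend the log2 ratios kept their directions, at 0.42, 0.10, -0.27, -0.71, -0.67 and -0.61. Set against the median of the other 6 libraries, G11 turned to 0.09.

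HNRNPUL2 (chromosome 11, 62712630 to 62727472, minus strand) had 12 reads in the control, with G3 at 11, G5 at 10, G11 at 5, G12 at 3, G13 at 2 and G14 at 4, or 0.71 TPM at most. Its annotated transcript is 5229 nt long, at percentile 88.8 of the genes compared. G13 was below the floor of 3 reads. Isoforms without control reads are not in the table, and 6 of the 12 control reads lay on 5 isoforms with no read in any G library. On the other 2 isoforms the control had 6 reads, against 11 in G3 and 10 in G5, so no ratio of the total to the control is drawn for this gene. The readthrough gene HNRNPUL2-BSCL2 was listed with 40 isoforms, but all lay at 62690273 to 62707564, outside HNRNPUL2. The control had it at 11.6 TPM, from 195 reads, and the G libraries at 6.60 to 9.18 TPM, and none of its reads entered HNRNPUL2. Isoforms without control reads are absent from the readthrough gene too, and their part in this difference was not tested.

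The other genes of the list of LASR partners and paralogs were DDX17, HNRNPU, HNRNPUL1, HNRNPH2, HNRNPH3, HNRNPF, RALY, MYEF2 and ZFR, of which DDX17, the paralog of DDX5, was below 5 TPM on average. Of the 8 compared, 1 was 2-fold from the control in G14, ZFR, which was higher, against 22.8% of all genes. None was in the other G libraries, against 7.03% (G3) to 15.6% (G13) of all genes. G13 was the only library with any of them 1.5-fold lower: HNRNPUL1, RALY and MYEF2, 3 of the 8, against 29.1% of all genes. With the length and GC trend removed these were at 87.5%, 149% and 72.3% of the control in G13, so none was 1.5-fold lower. In G3, G5, G11, G12 and G13, 1 of the 8 was 1.5-fold higher, and in G14 2 were. The share of all genes that much higher was 8.71%, 3.71%, 6.53%, 5.08%, 6.86% and 15.5% in G3 to G14. The median log2 ratio of the 8 was 0.25 for G3, 0.29 for G5, 0.08 for G11, -0.18 for G12, -0.22 for G13 and 0.00 for G14. ZFR, a zinc finger protein that also carries a DZF domain, had 59.2 TPM in the control and 76.1, 101, 104, 104, 109 and 133 TPM in G3 to G14. It was thus above the control in all 6, from 129% (118 to 140) in G3 to 224% (209 to 241) in G14.

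Close paralogs of members did not all lie on the same side of the control. HNRNPH2, the nearest paralog of HNRNPH1, had 182 TPM in the control and 174, 250, 262, 225, 248 and 307 TPM in G3 to G14. It was thus above the control in 5 G libraries, and highest in G14 at 168% (161 to 176). HNRNPH3 stayed between 91.1% and 105% of the control and HNRNPF between 90.9% and 131%. RALY, a relative of HNRNPC, was at 113% in G3 and lowest in G13, at 65.5% (63.6 to 67.4), where HNRNPC was highest. Removing the length and GC trend turned the direction of RALY in 5 G libraries, to log2 ratios of -0.15 for G3, 0.15 for G11, 0.44 for G12, 0.58 for G13 and 0.27 for G14. HNRNPU, a paralog of HNRNPUL2, was at 153% in G3 (150 to 157) and 80.6% in G13 (78.6 to 82.7). DDX17 had 32 reads in the control and 11 to 38 in the G libraries, with an interval below 100% in G12, G13 and G14. Isoforms without control reads are absent from the DDX17 values, and their part in these ratios was not tested.

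Isoform usage within each member was then compared by the total variation distance of isoform shares to the control, a measure from 0 (identical shares) to 1 (no isoform in common). No member reached 0.2 in any G library, a distance for which the share of all genes was 9.63% for G3, 9.31% for G5, 10.9% for G11, 11.1% for G12, 14.9% for G13 and 14.7% for G14. Among genes with a mean of at least 20 TPM, which takes in all 6 members, that share was smaller, at 3.40% (G3) to 6.77% (G13). At 0.1, HNRNPH1 was past the threshold in all 6, and MATR3 and DDX5 in G12, G13 and G14. The share of all genes that far away was 32.5% for G3, 31.8% for G5, 34.5% for G11, 34.9% for G12, 38.8% for G13 and 40.2% for G14. ILF2, HNRNPM and HNRNPC stayed at or below 0.0519 in every library, under the median of all genes, which was 0.0622 to 0.0769. Among genes with a mean of at least 20 TPM that median was lower, at 0.0454 (G5) to 0.0560 (G14). HNRNPC lay close to it in G11 (0.0457 against 0.0473) and in G14 (0.0519 against 0.0560). Sampling of few reads raises this distance, and HNRNPH1 had the fewest reads of the 6.

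**Figure D3:**
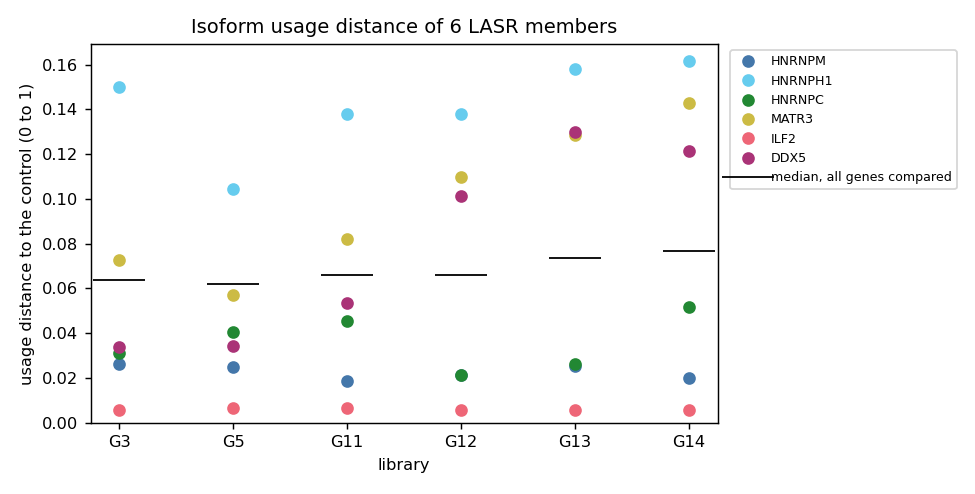
Isoform usage distance to the control (y axis, 0 to 1 in principle) in each G library (x axis) for the 6 members, with dashes at the median of all genes compared. ILF2 stayed between 0.00555 and 0.00682, and HNRNPH1 between 0.104 and 0.161.

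ILF2 differed in level but hardly in isoform makeup. ENST00000361891.9, which encodes 390 residues, held 96.7% to 97.2% of its reads in all 7 libraries. Of its reads 98.1% to 98.4% began in a single group of starts at 153670920 to 153671035, where a group is a run of isoform starts with gaps of at most 50 nt.

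HNRNPM differed in makeup by more than ILF2, at usage distances of 0.0188 to 0.0263, but by less than the median gene, while its level differed by up to 1.5 times. Its reads fell almost wholly on isoforms with a hashed ID instead of a reference ID, numbered here by mean share. The leading 4 held 42.4%, 32.8%, 11.9% and 8.19% on average. None of the 4 spanned more than 2.09 percentage points between its lowest and highest library.

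HNRNPC reads were held mainly by ENST00000553300.6 (49.6% on average), which encodes C1 with 293 residues, and ENST00000554455.5 (24.6%) and ENST00000557201.5 (11.2%), which encode C2 with 306. The long form of the exon printed above held 38.8% of the reads of annotated isoforms in the control (38.0 to 39.5). Its share was 40.0% for G3, 41.1% for G5, 41.7% for G11, 39.2% for G12, 38.8% for G13 and 41.8% for G14. The whole range was thus about 3 percentage points, with the control and G13 at the lower end. The control rested on 6475 reads of the long form and 10228 of the short form.

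HNRNPH1 isoforms without the exon that carries the stop codon, represented by ENST00000329433.11 and encoding 472 in place of 449 residues, held 9.68% of annotated-isoform reads in the control (7.40 to 12.6). Their share was 7.40% for G3, 10.5% for G5, 10.7% for G11, 7.81% for G12, 8.44% for G13 and 10.0% for G14. All intervals of the G libraries overlapped that of the control, so no difference was detectable at this depth. The larger shift was in the start. The group of starts at 179623355 to 179623422 held 8.72% of reads in the control, with G3 at 8.88%, G5 at 11%, G11 at 10.7%, G12 at 17.0%, G13 at 14.1% and G14 at 17.6%. Its main isoform, ENST00000356731.9, has an annotated first exon of 179623037 to 179624669 and held 5.26% in the control and 12.3% in G14. The group thus lies inside that annotated exon, and whether its reads are whole transcripts or partial cDNA was not tested. The most used group of starts, at 179623633 to 179623761, held 83.9% in the control and 78.7% to 86.8% in the G libraries. Across 7822 genes, the most used start group was below its control share in 17.4%, 20.6%, 30.6%, 35.1%, 37.8% and 36.1% for G3 to G14.

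MATR3 had the largest difference of the 3 coding exons shown. Isoforms without the 1089-nt exon (139307239 to 139308327), which encode 559 in place of 847 residues by their annotation, held 25.2% of annotated-isoform reads in the control (23.7 to 26.8). Their share was 23.7% for G3, 25.2% for G5, 26.0% for G11, 28.8% for G12 (27.6 to 30.1), 28.6% for G13 (27.3 to 30.0) and 30.8% for G14 (29.5 to 32.0). G12, G13 and G14 were above the control beyond the counting intervals, and G3, G5 and G11 were not separated from it. The annotated isoforms without the exon are also shorter: ENST00000503811.5 is 2518 nt long, against 4843 nt for ENST00000394805.8 and 4018 nt for ENST00000618441.5. Exon use and transcript length can therefore not be told apart in this share.

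**Figure D4:**
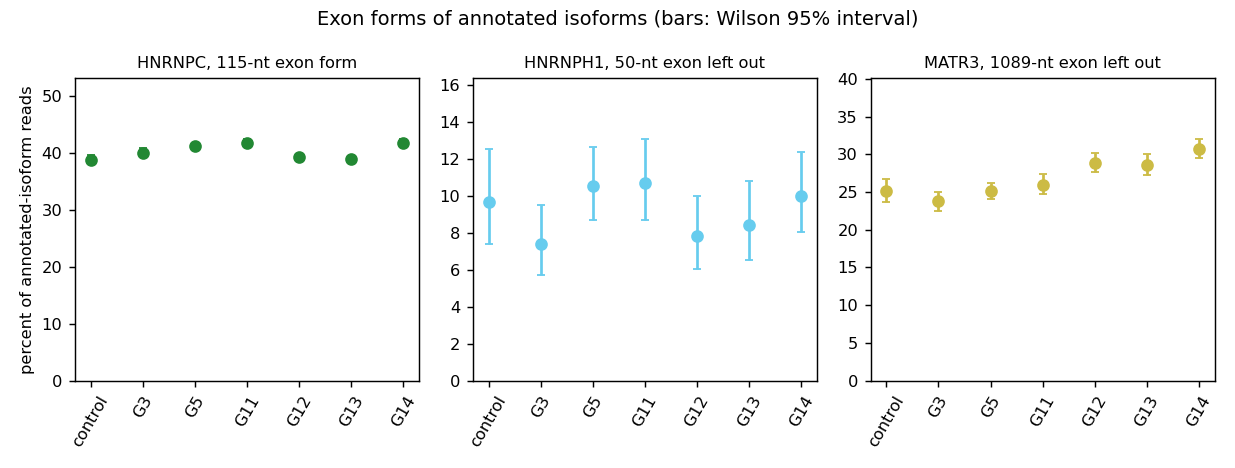
Percent of annotated-isoform reads (y axis) in the control and 6 G libraries with the 115-nt HNRNPC exon form, without the 50-nt HNRNPH1 exon and without the 1089-nt MATR3 exon, with Wilson 95% intervals. The MATR3 share runs from 23.7% in G3 to 30.8% in G14, whereas the HNRNPH1 intervals overlap.

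The ends of MATR3 reads differed along with that share. ENST00000394805.8, the longest of the 3 main isoforms, held 42.4% of the gene in the control, with G3 at 46.5%, G5 at 42.8%, G11 at 40.0%, G12 at 37.3%, G13 at 36.1% and G14 at 34.9%. At the 3′ end, the most distal group (139331664 to 139331676) held 73.5% in the control, 77.3% in G3 and 69.1% in G13. The group at 139331357 to 139331361 held 11.9% in the control, 10.3% in G3 and 17.1% in G13.

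DDX5 was led by ENST00000225792.10, which encodes 614 residues and held 73.6% of reads in the control, with G3 at 74.8%, G5 at 75.4%, G11 at 74.2%, G12 at 66.2%, G13 at 64.9% and G14 at 65.4%. The most upstream group of starts (64506520 to 64506530) held 84.8% in the control, with G3 at 87.5%, G5 at 85.9%, G11 at 82.7%, G12 at 76.4%, G13 at 74.0% and G14 at 74.6%. A group well inside the gene (64504697 to 64504843) held 2.93% in the control, with G3 at 2.02%, G5 at 3.27%, G11 at 5.09%, G12 at 7.79%, G13 at 8.85% and G14 at 9.22%. The 3 libraries with the least DDX5 were thus those with the largest share of starts inside the gene.

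To set these shares beside the levels, reads were divided at the downstream edge of the annotated first exons (64506076 for DDX5, 139294028 for MATR3), a division chosen after the groups of starts had been seen. For DDX5, 42 of 172 isoforms began downstream of that edge. They held 6.37% of reads in the control (5.96 to 6.80), with G3 at 4.03%, G5 at 6.47%, G11 at 10.2%, G12 at 15.4%, G13 at 18.2% (17.5 to 18.9) and G14 at 16.8%. G3 was below the control, G5 level with it and the other 4 above it.

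The 2 classes of reads lay on opposite sides of the control in 5 of the 6 G libraries, G5 being the exception. As a percent of the control, the level of DDX5 reads that began in or upstream of the first exons was 146% for G3 (143 to 150), 119% for G5, 88.2% for G11, 57.3% for G12 (55.9 to 58.8), 58.3% for G13 and 66.7% for G14. That of reads that began further inside was 90.3% for G3 (81.8 to 99.6), 122% for G5, 147% for G11, 154% for G12, 191% for G13 and 198% for G14 (183 to 215). The total of DDX5 was thus below the control in those libraries where reads with internal starts were farthest above it. Whether such reads are whole transcripts or partial cDNA cannot be told apart in the deposited table. The labels give RNA integrity numbers of 8.7 to 9.7 over the samples, with none for a single library.

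For MATR3, 22 of 228 isoforms began downstream of the first exons and held 5.61% of reads in the control (4.96 to 6.33), with G3 at 5.65%, G5 at 6.44%, G11 at 8.76%, G12 at 8.49%, G13 at 11.2% and G14 at 10.0%. Upstream-starting reads were at 101% of the control in G13 (96.8 to 105) and 128% in G14, and reads with internal starts at 214% (185 to 248) and 240% (208 to 279). HNRNPC and ILF2 showed no such difference of 4 percentage points: internal starts held 1.26% to 2.06% for HNRNPC and 1.64% to 1.89% for ILF2. The division says nothing about HNRNPH1, because an annotated first exon ends at 179623037, and none of its 78 isoforms starts downstream of that. HNRNPM had no annotated isoform at 5% or more and was not divided. Across 7504 genes divided in the same way, the percentage with a share at least 4 points above the control was 0.413% for G3, 0.973% for G5, 4.62% for G11, 7.16% for G12, 10.2% for G13 and 8.32% for G14. The median share of these genes was 0.218% in the control and 0% in every G library, so many of them had no such reads there. The percentage among genes with internal starts is not given here. That size was chosen with the values seen, and DDX5 was past it in G12, G13 and G14 and MATR3 in G13 and G14.

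**Figure D5:**
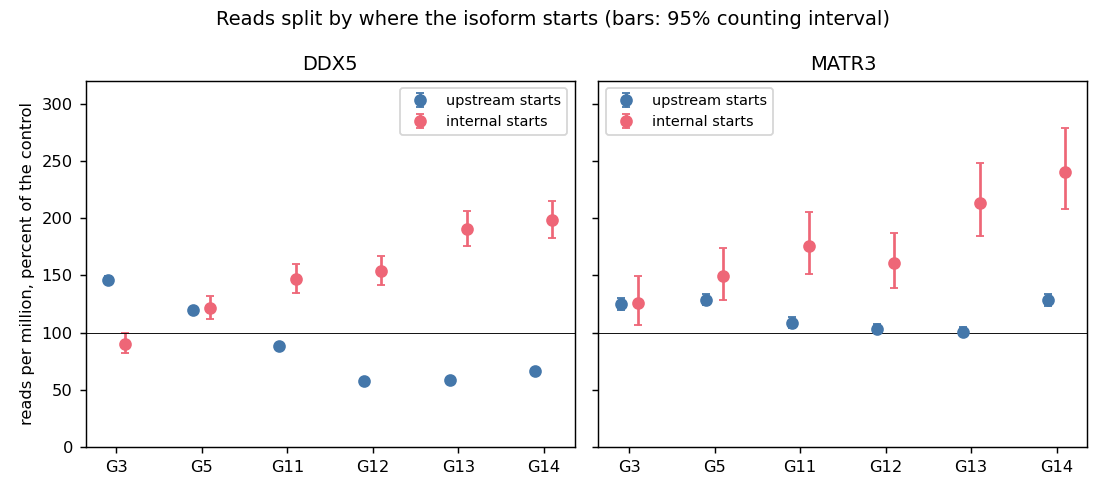
DDX5 and MATR3 TPM as a percent of the control (y axis) in each G library (x axis), divided into isoforms that start in or upstream of the annotated first exons and isoforms that start further inside, with 95% counting intervals. For G12, G13 and G14 the DDX5 classes lie on opposite sides of the line at 100%.

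The genes most like each member across the 7 libraries were found by the Pearson correlation of log2(TPM + 0.5) among 5213 genes with a mean of at least 20 TPM; these are descriptions of 7 points that share the same libraries and length trend. For ILF2 they were ERGIC2 (r = 0.998) and CHST4 (0.996), and 191 genes exceeded 0.95. For DDX5 they were CDS2 and TUBB6 (both 0.996), with 267 genes above 0.95. The other members had far fewer such genes: 19 for MATR3, led by BLMH (0.997) and RAD50 (0.980), 17 for HNRNPM, led by VAT1L (0.988) and HIF1A (0.982), and 15 for HNRNPH1, led by EXT2 (0.987) and NT5C3A (0.985). HNRNPC had 3, led by RSL24D1 (0.975) and HLA-E (0.961).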

How the data were processed

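Per the labels' protocols, cDNA was joined into 8-fold arrays (MAS-Seq), sequenced on the Revio system and split into reads of single molecules. Per the file headers, the deposited table holds full-length-read counts and TPM per isoform and library. The deposited TPM equalled the deposited count divided by the library total to within 0.01. The submitters' processing notes list minimap2 2.17 and GRCh38; the isoform caller and its filters are not given in the sources used here. No isoform of the table lacks control reads (minimum 1), so isoforms found only in G libraries are absent from all values. No columns of sample values were left unused (0).

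Counts were summed by gene symbol, which merged the MATR3 IDs, and joined gene IDs went to their first gene. TPM was recomputed from counts and compared as log2(TPM + 0.5). Ratios have exact Clopper-Pearson intervals and shares Wilson intervals, both at 95%; reads carry no molecular identifiers, so intervals and the floor of 3 reads cover counting error only. Starts are printed with 1 added, being counted from 0 in the table. Exons, coding lengths, sequences, length and GC came from GENCODE 29, matched by transcript ID without version. The length and GC trend was a quadratic surface over 7735 genes. The scripts used Python 3.11.15, pandas 2.3.3, numpy 2.4.6 and scipy 1.17.1 and were tested on simulated data.

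Named are the members, RBFOX2, their isoforms and end groups holding at least 5% on average, a list of partners, paralogs and neighbours (1 gene of which is not reported here), and the 2 most alike genes per member with at least 20 TPM. The members and lists were chosen with earlier results of these data known. The exon forms, and HNRNPH1, MATR3 and DDX5 as genes described by their starts, were chosen after their values were seen.

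Deposited ends may be the extent of the widest read of an isoform: of 5271 genes with at least 20 isoforms, the most read isoform came within 5 nt of the outermost 3′ end in 67.3%, against 2.47% if every isoform were equally likely to. Alternatives tried were other pseudocounts, scalings, filters, references, thresholds, end gaps and isoform subsets, and leaving out each G library.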

Additional observations from a re-analysis of the deposited data

Results flagged for a closer look

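DDX5 was the 1 member with G libraries on both sides of the control, each with an interval off 100%, that were more than 2-fold apart: its level was at 143% of the control in G3 and 63.5% in G12, a ratio of 2.25 between these libraries. Each side is a single library, and the difference was not tested.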

How the results depend on the processing

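No paired analysis was possible because each group has 1 library and all share the same replicate number. No member value was 2-fold from the control by the main processing, but 2 were after median-of-ratios scaling (ILF2 in G13 and G14), 1 with the length and GC trend removed (ILF2 in G14) and 5 at a 1.5-fold threshold. The share of all genes 2-fold away after that scaling, or with the trend removed, is not given here. Median-of-ratios scaling also moved the median log2 ratio of all genes from -0.16 to -0.03 in G12, from -0.21 to -0.06 in G13 and from -0.10 to 0.01 in G14. The 36 directions were kept under all settings except 2 with that scaling, 5 with the trend removed (HNRNPM in G12, HNRNPH1 in G14, MATR3 in G11, G12 and G13) and 9 with the median of the other 6 libraries as the reference, among them ILF2 in G3 and G5 and DDX5 in G11. With isoforms of a reference ID alone, 30 values could be computed, since HNRNPM has 1 such isoform. Over these settings the median log2 ratio across G libraries ran from 0.20 to 0.86 for ILF2 (main value 0.77), -0.44 to -0.13 for DDX5 (-0.27), 0.00 to 0.28 for MATR3 (0.25), 0.09 to 0.40 for HNRNPM (0.18), 0.02 to 0.17 for HNRNPC (0.06) and -0.04 to 0.23 for HNRNPH1 (0.12, turned by removing the trend). Leaving out G3, G5 or G11 gave -0.41 for DDX5, and leaving out G12, G13 or G14 gave -0.12. For HNRNPM, leaving out G3, G12 or G13 gave 0.32, and leaving out G5, G11 or G14 gave 0.04. The median usage distance was 0.0431, and became 0.0293 with isoforms of at least 1 TPM, 0.0163 with reference IDs alone, 0.0348 against the mean of the other 6 libraries and 0.0374 to 0.0488 leaving out 1 G library at a time. At a threshold of 0.1 in place of 0.2, 12 distances passed in place of 0. The median share of the main DDX5 start group over the G libraries was 79.6%, and became 86.1% joining ends within 200 nt, 81.5% with isoforms of at least 1 TPM, 98.6% with reference IDs alone and, by a division chosen after the data were seen, 87.2% counting all starts not downstream of the first exons. Over the 6 members and 6 G libraries, the median share of the main 3′ group was 96.3%, 97.3% with isoforms of at least 1 TPM and 98.6% with reference IDs alone. The cause was not tested for any of these moves. Depth limits HNRNPUL2 and the exon share of HNRNPH1.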

Other observations

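Genes that overlap or neighbour members had levels of their own. SNHG4, a noncoding host gene that overlaps the longer MATR3 gene ID, was at 8.99 TPM in the control, with G3 at 7.84, G5 at 6.76, G11 at 5.23, G12 at 3.56, G13 at 4.87 and G14 at 3.77. SNHG4 was below the control in all 6 G libraries, and the interval of its ratio reached past 100% in G3 alone. MATR3 was above the control in all 6, but not in G11, G12 and G13 with the length and GC trend removed. SNHG4 had 79 to 172 reads per library, and isoforms without control reads are absent from its values. Their part in its ratios was not tested. CEP95, which overlaps the DDX5 gene, was at 11.1 TPM in the control, with G3 at 12.4, G5 at 9.31, G11 at 7.87, G12 at 5.96, G13 at 6.80 and G14 at 6.73. Its level was highest in G3 and lowest in G12, as for DDX5, but these ranks were not separated by counting error. G3 was at 112% of the control (91.6 to 137), and the intervals of G12, G13 and G14 overlapped. CEP95 had 141 to 237 reads per library, and isoforms without control reads are absent from its values as well. How reads in overlapping stretches were divided is not given in the sources used here. BSCL2, which shares the readthrough gene with HNRNPUL2, was at 98.1% of the control in G3 (92.5 to 104) and lowest in G14, at 61.1% (57.3 to 65.2). With the length and GC trend removed BSCL2 was at 108%, 112%, 112%, 97.4%, 104% and 90.9% of the control in G3 to G14.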
